A study of Mus musculus with 24 samples.

Results

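The genes of the glucocorticoid and corticotropin-releasing hormone (CRH) stress system were followed in the hippocampus of mice whose fathers or grandfathers had received a methyl donor-rich diet (MD) or a control diet (CD). The 10 genes were Crh, Crhbp, Crhr1, Crhr2, Nr3c1, Nr3c2, Hsd11b1, Fkbp5, Sgk1 and Tsc22d3. They were found on the arrays through the transcript identifier of each probe, which gave 12 of the 39429 probes, since Crhr1 and Nr3c1 each had a second probe. Of all probes, 26055 could be given a symbol, for 19751 genes. RNA was measured on 24 single-color Agilent mouse arrays, with 6 arrays in each of 4 groups (CD or MD, in F1 or F2) and a pool of 4 mice on each array. The F1 mice were C57BL/6J x 129S6/SvEv hybrids, congenic by their labels and isogenic by the study's account, sired by males that had eaten MD or CD for 6 weeks before they were mated. The F2 mice were mixed hybrids of the same strains, born to F1 females from the CD line that were mated with F1 males of either the MD or the CD line. The experimental chow (3MS ZM) was enriched in folic acid (15 mg), vitamin B12 (1.5 mg), zinc (150 mg), choline (15 g), betaine (15 g) and methionine (7.5 g). All offspring ate the control diet themselves, so a group is defined by the diet of a male ancestor. The labels give an age of 4 weeks, while the study describes adult offspring.

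The stress axis starts with CRH, a peptide that drives the release of corticotropin from the pituitary and thereby of glucocorticoids from the adrenal gland. Within the hippocampus, CRH is made by interneurons and acts on pyramidal cells through its receptor CRHR1. Glucocorticoids reach the same cells from the blood and bind the mineralocorticoid and glucocorticoid receptors, which are transcription factors with high levels in this region and which switch on genes such as Fkbp5, Sgk1 and Tsc22d3.

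The 12 probes were well above background on all 24 arrays. The median intensity of an array ranged from 148 to 318, and between 27383 and 37013 spots per array were well above background, the lowest numbers being in F2. Of 9 markers of hippocampal excitatory neurons, 8 were well above background on every array and the other, Tdo2, on 23. Each generation lay on 3 slides of its own, each slide carrying 2 CD and 2 MD arrays, and was scanned on a day of its own, so that generation cannot be told apart from slide and scan. An array was called apart where it correlated less with its generation than the others did, which held for MD F1 replicate 6 (mean r 0.985), CD F2 replicate 6 (0.977) and MD F2 replicate 3 (0.974). A measure of sex, the mean log2 signal of 4 Y-linked transcripts minus that of Xist, was between 5.23 and 7.26 on 9 F2 arrays and between -7.66 and -7.43 on CD F2 replicates 3 and 5 and MD F2 replicate 6. On the CD F1 arrays it was between -2.30 and -1.90, and on the MD F1 arrays between -2.15 and 0.16. MD F1 replicates 2, 3, 4 and 6 lay above every CD F1 array, with replicate 6 highest. The sex measure thus differed by diet in F1, and the sexes in a pool are not given in the labels. Nothing says that the pools of a group came from separate litters, so p-values measure the spread between these pools.

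The sequences most relevant to the induced genes are shown first, because the relation of Fkbp5, Sgk1 and Tsc22d3 over arrays is examined further on as a sign of corticosteroid action. The receptors bind a palindromic glucocorticoid response element, searched here on both strands as AGAACA, 3 bases of any kind and TGTTCT, with a single arm (AGAACA or its reverse complement TGTTCT) as a looser search that also matches each arm of the whole element. In the RefSeq windows of 250 bases before to 50 after each start (GRCm38.p6), the whole element occurred in 3 of 32851 windows (0.0091%) and a single arm in 19.0%. Of the 15 windows of 8 of the genes, 1 held the whole element and 4 held an arm. The whole element lay at bases -189 to -175 of the fifth of 6 Sgk1 starts, and single arms were also found before 2 other Sgk1 starts and 1 of 3 Tsc22d3 starts. The single Fkbp5 window held none, and the response elements known for that gene lie in its introns. The letters are a description and not evidence of binding. In the following stretches, all before the start, arms are in capitals, and the whole element of Sgk1 is seen as the pair of arms 3 bases apart.
Sgk1, chr10:21993640-21993759, plus strand, bases -250 to -131: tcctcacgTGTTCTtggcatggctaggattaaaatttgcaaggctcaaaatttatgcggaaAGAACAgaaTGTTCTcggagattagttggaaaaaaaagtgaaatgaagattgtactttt
Tsc22d3, chrX:140600653-140600772, minus strand, bases -250 to -131: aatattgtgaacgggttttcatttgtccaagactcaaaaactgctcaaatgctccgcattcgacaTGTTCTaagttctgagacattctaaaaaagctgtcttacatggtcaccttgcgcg
Fkbp5, chr17:28486150-28486399, minus strand, bases -250 to -1: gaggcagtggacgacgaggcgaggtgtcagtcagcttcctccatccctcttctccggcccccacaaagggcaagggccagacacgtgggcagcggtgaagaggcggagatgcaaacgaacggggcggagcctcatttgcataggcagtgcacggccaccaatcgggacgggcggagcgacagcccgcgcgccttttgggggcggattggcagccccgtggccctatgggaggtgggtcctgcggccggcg

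The first question was whether any gene of the system differed by paternal diet in F1. Probes were called at a false discovery rate (FDR) under 0.1 over all probes tested with limma, and by that rule 0 of the 12 probes were called, where 0.033% of all probes were. At an unadjusted p under 0.05 there were 4 of 12 probes, beside 14.4% of all probes. Both Nr3c1 probes were among these with lower signal in MD F1 (7.48% of all probes), and the first Crhr1 probe and Crhr2 with higher signal (6.96% of all probes). The median log2 fold change of the 12 probes was 0.0049, against 0.0065 over all probes. In F2, 0 of 12 probes were called (0% of all probes) and 0 had an unadjusted p under 0.05 (5.6% of all probes, 3.22% higher and 2.38% lower). The values of the 4 F1 probes are given with those of their relatives, in the order of ligand, binding protein, membrane receptors, steroid receptors, steroid-activating enzyme and induced genes. All values are log2 signals, quantile-normalized within a generation, so that levels of F1 and F2 are not to be set against each other unless stated.

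**Figure D1:**
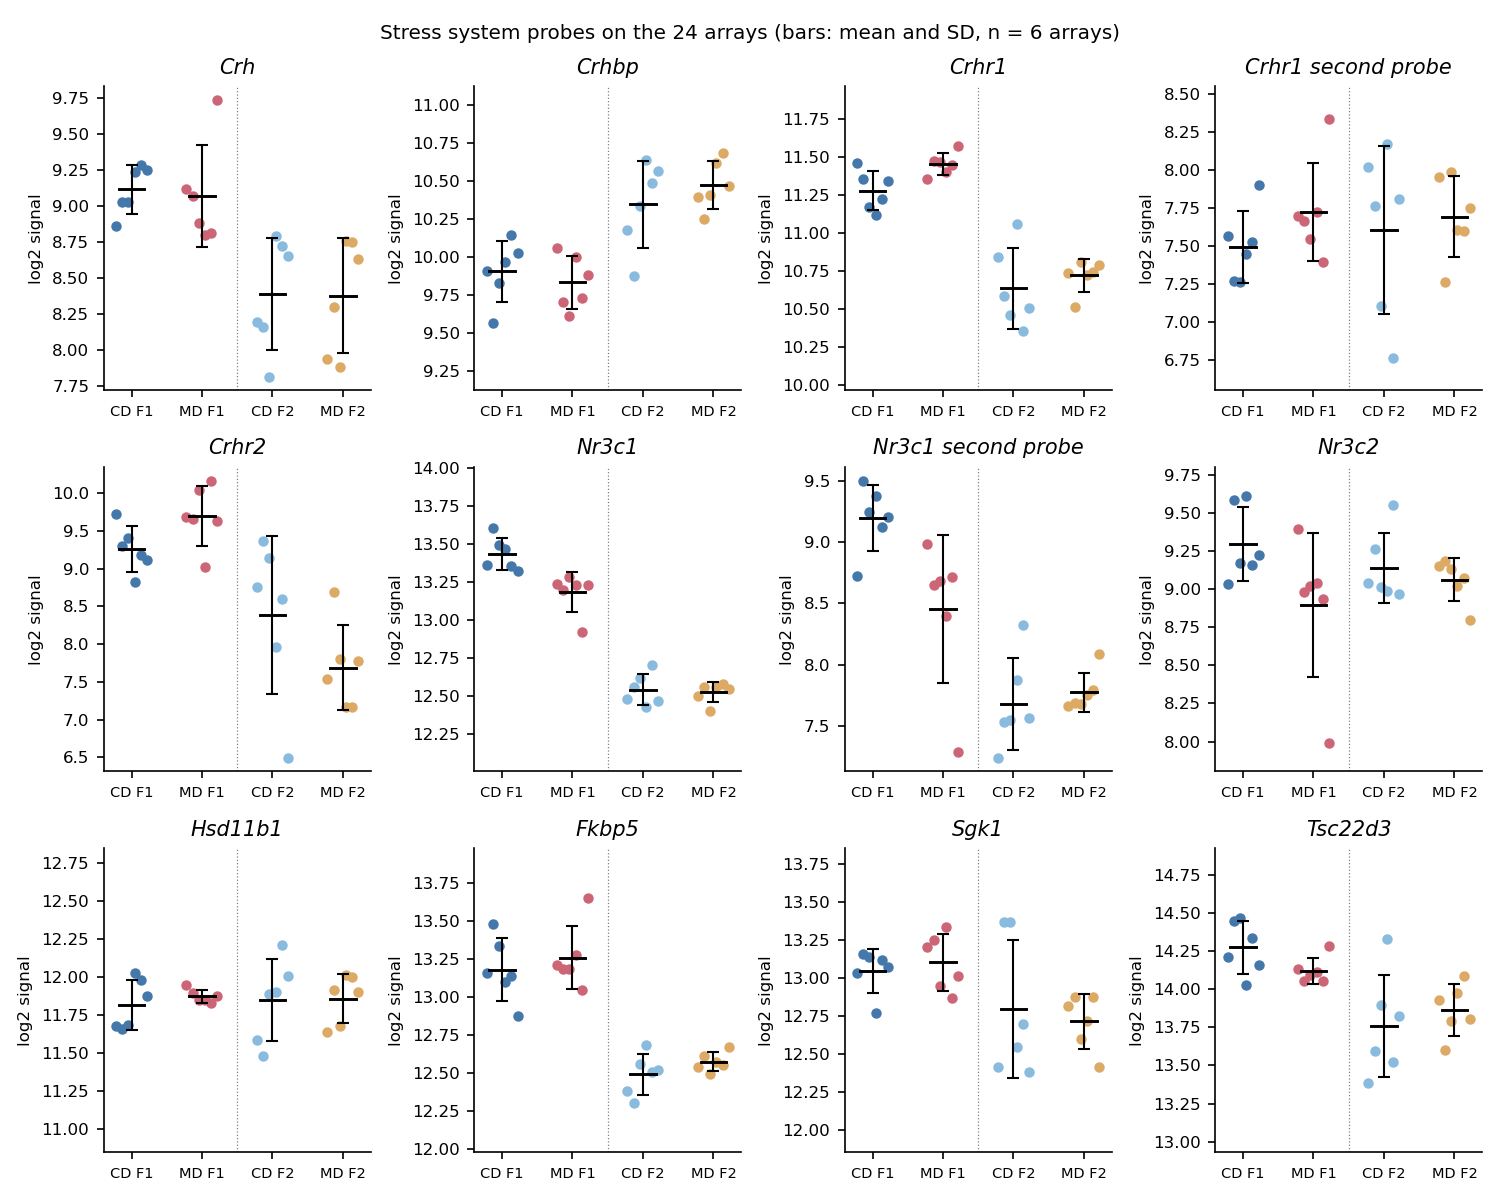
Log2 signal of the 12 probes (y axis) in the 4 groups (x axis), each point 1 array (a pool of 4 mice), bars the mean and SD over 6 arrays. F1 and F2 were normalized separately. For the first Nr3c1 probe all 6 MD F1 points (12.92 to 13.28) lie under the CD F1 points (13.32 to 13.61), while the groups overlap for each of the other 11 probes in F1 and for all 12 in F2.

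Crh, the peptide itself, had signals of 8.86 to 9.28 (median 9.13) on the CD F1 arrays and of 8.80 to 9.73 (median 8.97) on the MD F1 arrays. The highest MD F1 value belonged to replicate 6, with the next MD F1 array at 9.12, and the groups overlapped. This gave a log2 fold change of -0.05 (SE 0.151, FDR 0.904, limma). In F2 the CD arrays spanned 7.82 to 8.79 (median 8.42) and the MD arrays 7.88 to 8.76 (median 8.47), with a log2 fold change of -0.013 (SE 0.215, FDR 0.999, limma). Both diets thus covered nearly the same interval in F2. The F2 labels carry a code, lh or rh, whose meaning is not given in the sources used here. Arrays coded lh had 7.82 to 8.30 and arrays coded rh 8.63 to 8.79, with both codes present in each diet group. The share of all probes that split by the code is not given here.

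Crhbp encodes the secreted protein that binds CRH and keeps it from its receptors. CD F1 arrays had 9.56 to 10.15 (median 9.94) and MD F1 arrays 9.61 to 10.06 (median 9.81), with a log2 fold change of -0.07 (SE 0.108, FDR 0.763, limma). In F2 it was 9.87 to 10.63 (median 10.41) in CD and 10.25 to 10.68 (median 10.44) in MD, and the log2 fold change was 0.13 (SE 0.131, FDR 0.940, limma). The MD F2 arrays lacked the low values of CD F2 replicates 1 and 2, but the groups overlapped in both generations. Both of these replicates were coded lh. Over both diets the lh arrays had 9.87 to 10.41 and the rh arrays 10.46 to 10.68.

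Crhr1, the receptor through which CRH acts on hippocampal pyramidal neurons, had a signal of 11.12 to 11.46 (median 11.28) in CD F1 and of 11.35 to 11.58 (median 11.46) in MD F1 on its brighter probe. All 6 MD F1 arrays lay above the CD F1 mean and 3 lay above every CD F1 array. Means were 11.28 ± 0.128 (SD, n = 6) and 11.45 ± 0.075 (SD, n = 6), with a log2 fold change of 0.17 (SE 0.069, FDR 0.303, limma), so the probe was not called. The two-sided exact permutation p over the 924 splits of the 12 arrays was 0.0195. The difference had the same sign on each of the 3 slides, from 0.09 to 0.23. On the second Crhr1 probe the CD F1 arrays had 7.26 to 7.90 (median 7.49) and the MD F1 arrays 7.40 to 8.34 (median 7.68). Its log2 fold change was 0.23 (SE 0.154, FDR 0.499, limma), and it was higher in MD on 2 of 3 slides. With the measure of sex as a covariate this estimate was 2.5e-05, and it went down to 0.11 with 1 array left out. In F2 the first probe spanned 10.36 to 11.06 (median 10.55) in CD and 10.52 to 10.81 (median 10.74) in MD, with a log2 fold change of 0.08 (SE 0.117, FDR 0.960, limma). The second probe had 6.76 to 8.17 (median 7.78) and 7.26 to 7.98 (median 7.68), with 0.09 (SE 0.235, FDR 0.993, limma). The MD F2 values of both probes lay inside the CD F2 range.

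Crhr2, the second CRH receptor and the main receptor of the urocortins, is known to be expressed in the choroid plexus of rodents. It was measured at 8.82 to 9.72 (median 9.24) in CD F1 and at 9.03 to 10.16 (median 9.67) in MD F1, and 2 MD F1 arrays (replicates 3 and 5) lay above every CD F1 array. MD F1 exceeded CD F1 by a log2 fold change of 0.44 (SE 0.191, FDR 0.325, limma; exact permutation p = 0.0606). In F2 the order was the other way. CD F2 arrays had 6.50 to 9.36 (median 8.67) and MD F2 arrays 7.16 to 8.69 (median 7.65), and the log2 fold change was -0.70 (SE 0.451, FDR 0.919, limma; exact permutation p = 0.173). The CD F2 arrays had the widest spread of the 48 sets of 6 arrays (SD 1.04), and the MD F2 arrays lay within their range. The diet by generation difference was 1.14 (SE 0.501, FDR 0.557, limma). Within slides the F2 difference ranged from -1.32 to 0.25, and without CD F2 replicate 6, the array at 6.50, it was -1.07 over all slides.

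Choroid plexus content was gauged by the mean log2 signal of 8 markers (Ttr, Folr1, Kl, Clic6, Kcne2, Aqp1, Otx2 and Sostdc1), of which 6, Ttr included, were well above background on all 24 arrays. It was 7.96 to 10.97 in CD F1, 8.07 to 12.23 in MD F1, 7.33 to 12.87 in CD F2 and 7.37 to 12.10 in MD F2. All 8 markers had higher means in MD F1 than in CD F1 and all 8 had lower means in MD F2 than in CD F2, with differences of the list mean of 0.46 and -2.06. The lowest FDR of a marker was 0.611 in F1 and 0.892 in F2 (limma). The arrays with the highest Crhr2 signal in F1, MD F1 replicates 5 (10.16) and 3 (10.05), were also those with the highest marker means (12.23 and 11.71). In F2 the highest Crhr2 signals, on CD F2 replicates 2 (9.36) and 3 (9.14), came with marker means of 12.87 and 12.84. The lowest, on CD F2 replicate 6 (6.50), came with 7.77. With the marker mean as a covariate, a setting chosen after the values were seen, the log2 fold change of Crhr2 was 0.33 in F1 (FDR 0.255, limma), -0.05 in F2 (FDR 0.997, limma) and 0.39 for the difference of the generations (FDR 0.807, limma). Whether more choroid plexus cells or more Crhr2 RNA per cell lay behind a higher signal cannot be told apart in tissue pools, here or for any other gene.

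**Figure D2:**
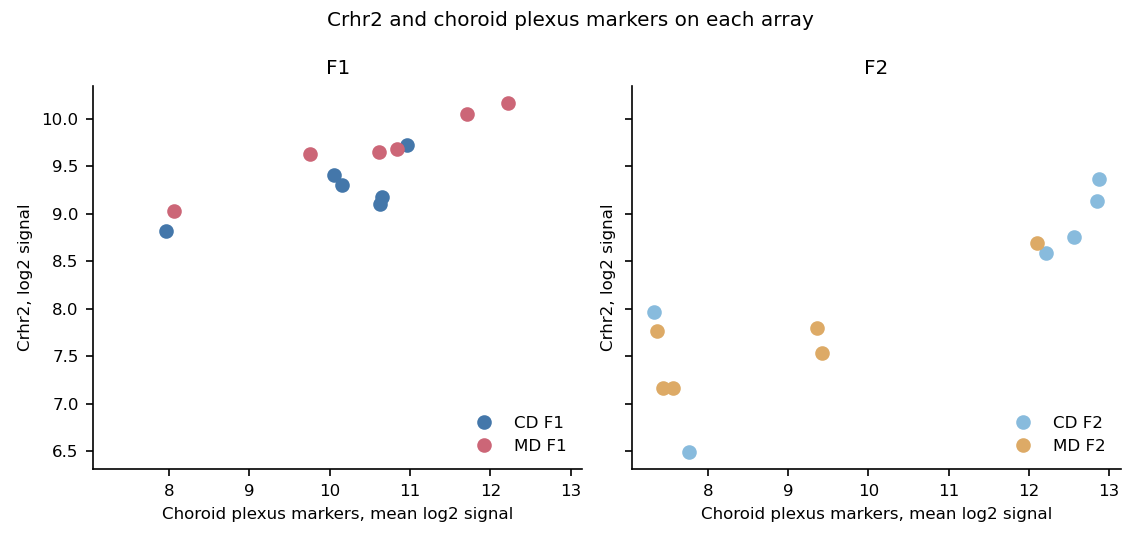
Log2 signal of Crhr2 (y axis) against the mean log2 signal of 8 choroid plexus markers (x axis) on each array, with F1 on the left, F2 on the right and 1 point per array colored by group. High Crhr2 signals came with high markers, as on MD F1 replicate 5 (10.16 and 12.23) and CD F2 replicate 2 (9.36 and 12.87).

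Nr3c1 encodes the glucocorticoid receptor. On its brighter probe (A_55_P1967885) the signal was 13.32 to 13.61 (median 13.41) in CD F1 and 12.92 to 13.28 (median 13.23) in MD F1. All 6 MD F1 arrays were below all 6 CD F1 arrays, which held for 1 of the 12 probes and, in either direction, for 1.79% of all probes. The CD F1 mean was 13.43 ± 0.108 (SD, n = 6) and the MD F1 mean 13.18 ± 0.132 (SD, n = 6). Their difference was -0.25 (log2, SE 0.076), a signal 0.841 times that of the controls, with an FDR of 0.221 in limma, and the probe was not called. The exact permutation p was 0.00216, the smallest that 924 splits allow. The difference was between -0.35 and -0.18 on the 3 slides and between -0.27 and -0.20 when any single array was left out.

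The second Nr3c1 probe (A_52_P254174) had 8.73 to 9.50 (median 9.22) in CD F1 and 7.29 to 8.98 (median 8.67) in MD F1. Here 5 of the 6 MD F1 arrays lay below every CD F1 array, and replicate 1 (8.98) reached into the CD F1 range. This corresponded to a log2 fold change of -0.74 (SE 0.248, FDR 0.254, limma; exact permutation p = 0.00433). The difference pointed the same way on each slide, from -1.33 to -0.36, and was -0.50 without MD F1 replicate 6, the array at 7.29. With the measure of sex as a covariate it was -0.29 (FDR 0.612, limma), compared with -0.29 for the brighter probe (FDR 0.389, limma). Both probes of the receptor therefore had lower signals in MD F1, by unequal amounts. Markers of several cell types and of neighbouring tissue also had lower means in MD F1, though none was called. The mean of 6 thalamus markers was 8.60 to 8.69 in CD F1 and 8.15 to 8.56 in MD F1, with 5 of the 6 lower and 2 at an unadjusted p under 0.05 (14.4% of all probes; lowest FDR 0.185, limma). Means were lower for 6 of 6 astrocyte, 7 of 9 excitatory neuron, 7 of 8 interneuron and 6 of 8 oligodendrocyte markers. Microglia, endothelial and striatum markers each had 3 higher and 3 lower, and all 8 choroid plexus markers were higher. Of all 39429 probes, 19115 were lower in MD F1. The part of any of these markers in the Nr3c1 values was not tested.

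In F2 the brighter Nr3c1 probe spanned 12.43 to 12.70 (median 12.52) in CD and 12.40 to 12.58 (median 12.55) in MD. MD F2 differed by a log2 fold change of -0.017 (SE 0.065, FDR 0.997, limma). For the second probe the ranges were 7.24 to 8.32 (median 7.56) and 7.66 to 8.09 (median 7.72), with 0.10 (SE 0.160, FDR 0.974, limma). The F2 groups overlapped on both probes, as did all 12 probes in F2, beside 0.352% of all probes whose F2 groups did not. The difference of the diet effects between generations was -0.23 (SE 0.096, FDR 0.537, limma) for the brighter and -0.84 (SE 0.308, FDR 0.470, limma) for the second probe, so that neither was called.

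Nr3c2 encodes the mineralocorticoid receptor, which binds glucocorticoids with high affinity in hippocampal neurons. CD F1 arrays had 9.03 to 9.62 (median 9.20) and MD F1 arrays 7.99 to 9.40 (median 9.00), of which 4 lay below every CD F1 array. The lowest value was that of MD F1 replicate 6, and the groups overlapped. The log2 fold change was -0.40 (SE 0.202, FDR 0.376, limma), -0.22 without that array and -0.07 with the measure of sex as a covariate (FDR 0.920, limma). In F2 the CD arrays lay at 8.97 to 9.55 (median 9.03) and the MD arrays at 8.80 to 9.19 (median 9.11), with a log2 fold change of -0.08 (SE 0.112, FDR 0.968, limma).

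Hsd11b1 encodes the enzyme that regenerates active glucocorticoid from its inert form inside the cell. CD F1 arrays had 11.65 to 12.03 (median 11.78), and MD F1 arrays 11.82 to 11.94 (median 11.86), the narrowest spread of the 48 sets of 6 arrays. This probe is the mean of 10 spots, while each other member probe has 1 spot, so the spreads are not measured alike. The log2 fold change was 0.06 (SE 0.076, FDR 0.741, limma). In F2 the ranges were 11.48 to 12.21 (median 11.89) and 11.64 to 12.01 (median 11.91), with 0.0094 (SE 0.127, FDR 0.999, limma). The MD arrays lay within the range of the CD arrays in both generations.

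The 3 genes that glucocorticoids induce were examined next. Fkbp5, a co-chaperone that lowers the affinity of the glucocorticoid receptor for its hormone and so closes a feedback loop, had 12.87 to 13.48 (median 13.15) in CD F1 and 13.05 to 13.65 (median 13.20) in MD F1. Its log2 fold change came to 0.08 (SE 0.117, FDR 0.769, limma), and it was -0.075 with the measure of sex as a covariate. In F2 it had 12.31 to 12.68 (median 12.51) and 12.49 to 12.67 (median 12.56), with 0.08 (SE 0.072, FDR 0.936, limma). All 6 MD F2 arrays lay above the CD F2 mean but within the CD F2 range.

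Sgk1, a kinase that acts on ion channels and transporters, had 12.77 to 13.16 (median 13.09) in CD F1 and 12.87 to 13.34 (median 13.11) in MD F1. MD F1 replicates 1, 2 and 4 lay above every CD F1 array and the 3 others were below the CD F1 mean, so that the mean hardly differed (log2 fold change 0.06, SE 0.097, FDR 0.805, limma). In F2 it had 12.38 to 13.37 (median 12.62) and 12.42 to 12.88 (median 12.77), with -0.08 (SE 0.191, FDR 0.989, limma). Both highest F2 values belonged to CD F2 replicates 2 and 3.

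Tsc22d3 encodes the glucocorticoid-induced leucine zipper protein. It had 14.03 to 14.47 (median 14.27) in CD F1 and 14.05 to 14.29 (median 14.10) in MD F1. The diet difference was -0.15 (log2, SE 0.083, FDR 0.409, limma), and 5 of 6 MD F1 arrays lay below the CD F1 mean. In F2 it had 13.39 to 14.33 (median 13.71) and 13.60 to 14.09 (median 13.87), with 0.11 (SE 0.150, FDR 0.962, limma). The 3 induced genes therefore had no common sign of the diet difference in F1, and none was called in either generation.

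**Figure D3:**
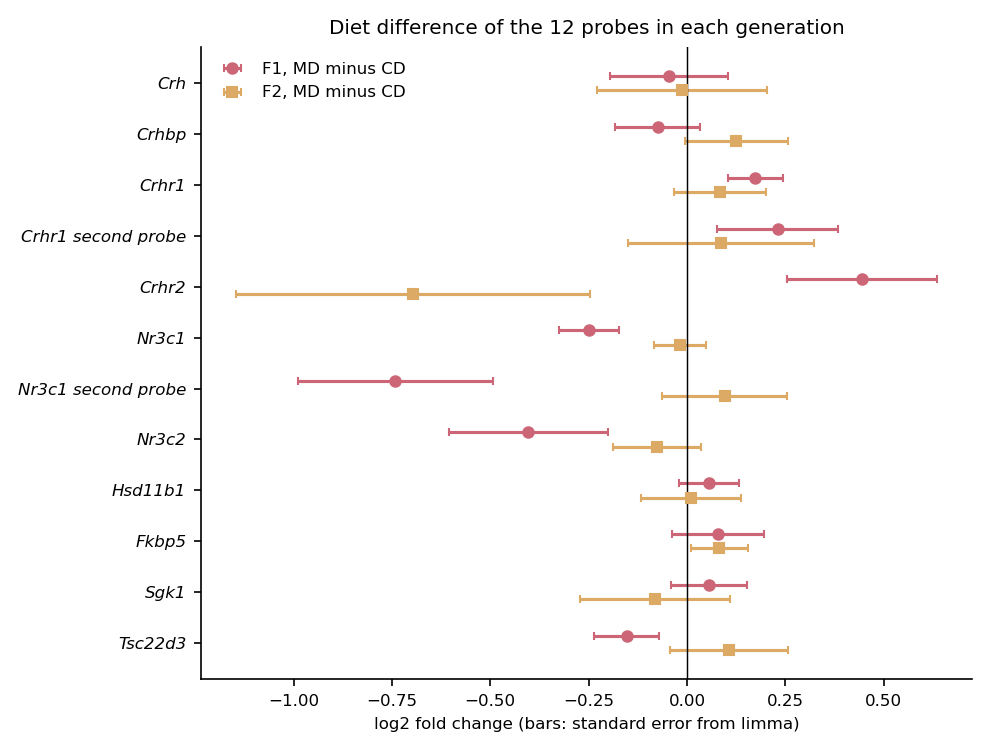
Log2 fold change of MD against CD (x axis) for each of the 12 probes (y axis) in F1 (circles) and F2 (squares), bars the standard error from limma. The F1 estimates run from -0.74 for the second Nr3c1 probe to 0.44 for Crhr2, the F2 estimates from -0.70 for Crhr2 to 0.13 for Crhbp (-0.05 and -0.035 with the choroid plexus markers as a covariate), and no probe was called in either generation.

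Over the 12 probes, the difference of the diet effects between F1 and F2 was called for 0, beside 0.0127% of all probes, and 3 had an unadjusted p under 0.05 (both Nr3c1 probes and Crhr2), beside 8.29% of all probes (3.7% with a higher and 4.59% with a lower effect in F1). With all 24 arrays normalized together, the control groups of the generations could be set side by side as a description. The arrays of these groups did not overlap for 3 of the 12 probes, beside 39.2% of all probes. On the log2 scale, Crhbp was 0.74 higher in CD F2 than in CD F1 with no overlap, and Hsd11b1 was 0.46 higher. For the brighter and the second Nr3c1 probe CD F2 minus CD F1 was -0.38 and -1.21, again with no overlap. The same difference was -0.58 for Crhr2, -0.43 for Crh and -0.18 for Fkbp5, and 0.27 for Sgk1, 0.13 for Nr3c2 and 0.08 for Tsc22d3. The Crhr1 probes pointed opposite ways, with -0.30 for the brighter and 0.43 for the second. Such values cannot be told apart from slide, scan or the cross that gave each generation. The sex measure of the pools also differed between the generations.

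To place the 10 genes among their pathway, 66 genes of 4 lists were counted in the same fits. The lists were CRH-related peptides and receptors (12 genes), receptor chaperones and coregulators (19), steroid synthesis, metabolism and transport (15) and further corticosteroid-induced genes (20). Not one of the lists' genes was called in F1, in F2 or for the difference of the generations. At an unadjusted p under 0.05 there were 5 of 63 tested genes in F1 (4 higher and 1 lower in MD) and 8 of 64 in F2 (4 in each direction), beside 14.4% and 5.6% of all probes. The median log2 fold changes were -0.0049 in F1 and -0.011 in F2.

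Among the peptides, Avp, the vasopressin precursor, had a mean of 5.81 ± 0.186 on CD F1 arrays and of 6.14 ± 0.288 on MD F1 arrays (SD, n = 6 each), which differed by 0.33 (log2, FDR 0.311, limma). Its F2 value was -0.04 (FDR 0.998, limma). Pomc, the precursor of corticotropin, had 0.13 in F1 (FDR 0.371, limma) and 0.29 in F2 (FDR 0.890, limma). Adcyap1, which encodes the peptide PACAP, had 0.24 in F1 and -0.14 in F2, and Avpr1a, a vasopressin receptor, had -0.0032 and -0.60. None of the 4 was called.

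Among the chaperones and coregulators, Hspa4, a heat shock protein, was higher on all 6 MD F1 arrays than on any CD F1 array (as were 2 of the 63 genes, beside 1.79% of all probes in either direction), with a log2 fold change of 0.17 (SE 0.057, FDR 0.248, limma) and of 0.05 in F2. Ppp5c, a phosphatase bound to the receptor complex, had 0.14 in F1 and 0.20 in F2 (FDR 0.451 and 0.890, limma). Crebbp, an acetyltransferase coactivator, had -0.20 and -0.21 (FDR 0.492 and 0.890, limma), and Ncoa1, a steroid receptor coactivator, had -0.10 and 0.0094. The estimates of Ppp5c and Crebbp had the same sign in both generations.

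In the steroid list, H6pd, which supplies the cofactor of the Hsd11b1 enzyme, had 0.24 in F1 and 0.04 in F2. Cyp11a1, which makes the first steroid from cholesterol, had 0.41 and 0.23, and Abcb1b, a transporter that exports corticosteroids, had 0.17 and 0.15. Tspo, a mitochondrial cholesterol-binding protein, had 0.11 and -0.37 (FDR 0.592 and 0.902, limma). Over the whole list, 8 of 13 genes had higher and 5 lower means in MD F1, from -0.52 to 0.41, with 0 at an unadjusted p under 0.05 and a lowest FDR of 0.347 (limma).

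Of the 20 further induced genes, 3 had an unadjusted p under 0.05 in F1 (2 higher and 1 lower), beside 14.4% of all probes, and 4 in F2 (2 in each direction), beside 5.6%. Per1, a clock gene that glucocorticoids induce, was the other gene with no overlap of the F1 groups, higher in MD, with a log2 fold change of 0.18 (SE 0.066, FDR 0.274, limma). Nfkbia, the inhibitor of NF-kappaB, had 0.21 (FDR 0.327, limma) and Cdkn1a, a cell cycle inhibitor, -0.28 (FDR 0.214, limma). Klf9, a transcription factor induced by corticosteroids in neurons, had -0.18 in F1 (FDR 0.409, limma) and -0.07 in F2. Arrdc2 had 0.45 in F2 (FDR 0.890, limma) and Pdk4, which restrains glucose oxidation, -0.28 (FDR 0.890, limma). The list had 6 genes with higher and 14 with lower means in MD F1, and 12 and 8 in MD F2.

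The second question was whether the induced genes moved together over arrays, as they would if pools differed in corticosteroid exposure. Values were centred on the mean of their diet group, so that 12 arrays of a generation could be used, and arrays were permuted exactly within groups. F2 values were not centred on the code lh or rh, and F2 arrays were permuted across codes. The F2 r and p therefore do not separate the codes from other differences between pools. The 3 pairs in 2 generations form a family of 6 relations. Fkbp5 and Sgk1 showed no clear relation in F1, with a Pearson r of 0.21 (exact permutation p = 0.548, 0.657 after Benjamini-Hochberg adjustment) and a Spearman rho of 0.43 (exact permutation p = 0.177). Without MD F1 replicate 6, r was 0.45 (exact permutation p = 0.136, unadjusted) and rho 0.745. Without the 2 arrays farthest from the median of Fkbp5, MD F1 replicate 6 and CD F1 replicate 6, r was 0.67 (exact permutation p = 0.0228, unadjusted). In F2, r was -0.30 (exact permutation p = 0.496, adjusted 0.657) and rho -0.18 (p = 0.624, exact permutation), and r was -0.16 without the 2 farthest arrays. With values also centred on slide, r was 0.31 in F1 and -0.24 in F2. Within the groups of 6 arrays r was 0.40 in CD F1, 0.07 in MD F1, -0.28 in CD F2 and -0.36 in MD F2.

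Fkbp5 and Tsc22d3 were the only pair of the 3 with an adjusted p under 0.05. In F1, r was 0.78 (exact permutation p = 0.00415, adjusted 0.0249) and rho 0.84 (exact permutation p = 0.00160, adjusted 0.00961). Arrays with high Fkbp5 for their group, such as CD F1 replicates 2 and 3 and MD F1 replicate 6, also had the highest Tsc22d3 signals of their group. The size of r hardly moved without the 2 farthest arrays (0.75) or with slide centring (0.78), but p was then 0.0559 (exact permutation) in the former. Without MD F1 replicate 6, r was 0.74 with an adjusted p of 0.162 (exact permutation). The adjusted exact permutation p was also above 0.05 without CD F1 replicate 1 (0.0526), 2 (0.0735) or 3 (0.0603). Within groups r was 0.75 in CD F1, 0.96 in MD F1, 0.84 in CD F2 and -0.33 in MD F2, and no adjusted p of the 12 relations within groups was under 0.05. In F2, r was 0.62 (exact permutation p = 0.0900, adjusted 0.258) and rho 0.45 (exact permutation p = 0.195), with r at 0.44 without CD F2 replicates 2 and 1 and at 0.63 with slide centring.

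Sgk1 and Tsc22d3 had an r of 0.45 in F1 (exact permutation p = 0.129, adjusted 0.258; rho 0.38) and of 0.0082 in F2 (exact permutation p = 0.987; rho 0.06). Without MD F1 replicate 6 the F1 value was 0.59 (exact permutation, adjusted p = 0.0305), and without CD F1 replicate 4 and MD F1 replicate 4, the arrays farthest in Sgk1, it was 0.19. With values also centred on slide, r was 0.60 in F1 and 0.13 in F2.

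The white matter share of a pool was followed through 8 oligodendrocyte markers, Mbp, Mog and Mag among them, all well above background on all 24 arrays. Their mean ranged from 15.02 to 15.37 in CD F1, from 14.64 to 15.19 in MD F1, from 14.68 to 15.13 in CD F2 and from 14.58 to 15.13 in MD F2. In F1, MD F1 replicate 6 was lowest and CD F1 replicate 6 highest. These were also the 2 arrays left out above for Fkbp5 and Sgk1 (r 0.67), so the 2 settings are not separate support. The marker mean was then regressed out of both genes and the residuals were permuted within groups, so that p is approximate and not exact. Fkbp5 and Sgk1 then had an r of 0.77 in F1 (adjusted p = 0.00688, permutation of residuals). Their F2 value was -0.32 (adjusted p = 0.580, permutation of residuals). Under the same setting Fkbp5 and Tsc22d3 had 0.72 in F1 and 0.76 in F2 (adjusted p = 0.0394 in F2, permutation of residuals). Sgk1 and Tsc22d3 had 0.69 in F1. With the choroid plexus mean regressed out instead, the F2 values were -0.013 for Fkbp5 and Sgk1 and 0.41 for Fkbp5 and Tsc22d3. For Sgk1 and Tsc22d3 the F2 value was 0.73 (adjusted p = 0.102, permutation of residuals). Fkbp5 and Sgk1 had a positive r in F1 and a negative r in F2 under each of these settings, though r in F2 was 0.13 with another background correction (normexp), and whether the relation differed between generations was not tested.

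**Figure D4:**
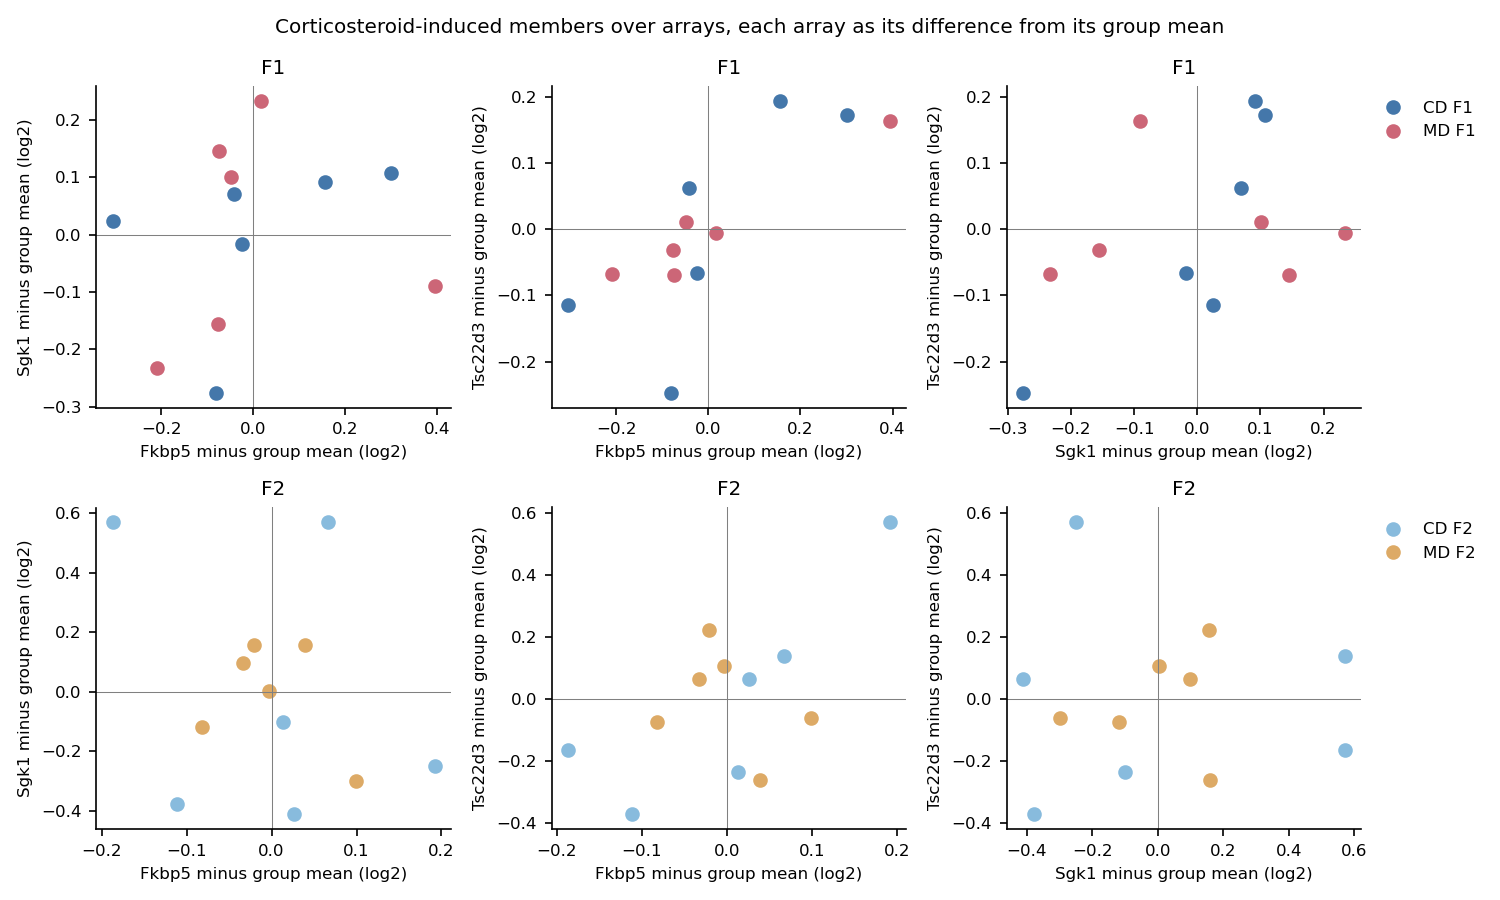
Fkbp5 against Sgk1 (left), Fkbp5 against Tsc22d3 (middle) and Sgk1 against Tsc22d3 (right) on the F1 arrays (top) and F2 arrays (bottom), as log2 differences of an array from the mean of its diet group, with 1 point per array colored by group. Points of Fkbp5 and Tsc22d3 run together in F1 (r 0.78), while those of Fkbp5 and Sgk1 scatter in F1 (r 0.21) and F2 (r -0.30).

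Over all 45 pairs of the 10 genes, on the brighter probe of each, 90 relations were computed and 0 had an adjusted exact permutation p under 0.05 when adjusted over all 90. The pairs Crhbp and Hsd11b1 (r 0.64 in F1 and 0.76 in F2) and Crh and Hsd11b1 (0.44 and 0.68) were positive in both generations, with adjusted exact permutation p of 0.321 throughout. Crhr2 and Crhbp were negative in both (-0.49 and -0.75), and Crhr2 and Hsd11b1 too (-0.52 and -0.40). In F2, every array coded rh lay above every array coded lh for Crh and Crhbp. Hsd11b1 was 11.48 to 11.91 on lh and 11.90 to 12.21 on rh arrays, and Crhr2 7.54 to 9.36 and 6.50 to 8.59. These F2 relations were not centred on the code, and its part in them was not tested. In all, 16 pairs were positive in both generations, 14 were negative in both and 15 had opposite signs.

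**Figure D5:**
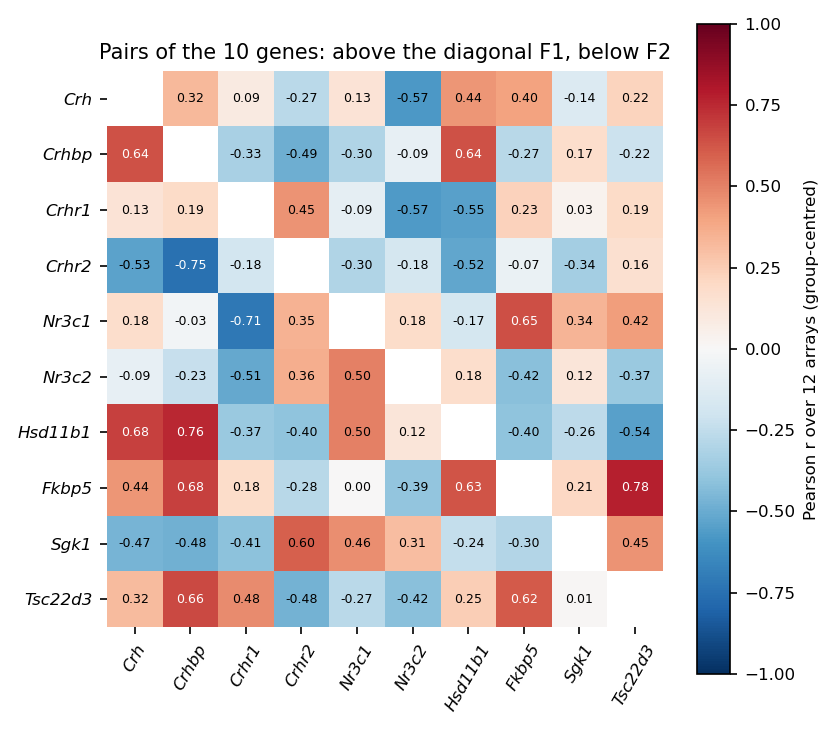
Pearson r of each pair of the 10 genes over the 12 arrays of a generation, after centring on the diet group, with F1 above the diagonal and F2 below it, and color from -1 (blue) to 1 (red). The highest values are those of Fkbp5 and Tsc22d3 in F1 (0.78) and Crhbp and Hsd11b1 in F2 (0.76), the lowest that of Crhr2 and Crhbp in F2 (-0.75). F2 values are not centred on the label code lh or rh.

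Finally, the 13717 genes whose probe was well above background on all arrays were ranked by the lower of their F1 and F2 correlations with each induced gene, as a description over 12 and 12 arrays that share slides and tissue composition. The genes most like Fkbp5 were Cables1 (r 0.84 in F1 and 0.94 in F2), Ensa, Pramel12, Mreg and Myadml2. For Sgk1 they included Xpr1 (0.81 and 0.72), Abi2, Edil3 and Wnt3, and for Tsc22d3 they were Ppp1r3g (0.78 and 0.93), Rnf24, Arpp21, Meis2 and Insyn2b. Tsc22d3 stood at rank 58 for Fkbp5, Sgk1 at rank 8083 and Per1 at rank 7385. Klf9 stood at rank 206 for Sgk1 (r 0.46 in F1 and 0.84 in F2) and at rank 8162 for Fkbp5 (0.40 and -0.30).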

How the data were processed

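RNA of pooled hippocampi was hybridized to single-color arrays (24 samples, 6 per group, groups and replicate numbers from the sample labels). The deposited files of each array hold spot intensities made by the authors with Agilent Feature Extraction 10.7.3.1 per the file headers (the methods name another version), on a linear scale, corrected for background and spatial trend on the array but not scaled between arrays. A deposited table of the authors' processed intensity values was an alternative. It is linear, and its column medians on the log2 scale lay between 7.68 and 7.88 and were nearly equal within a generation. The study states that arrays were quantile-normalized, but only medians were compared here, which cannot tell that from other scaling. The table correlated at 0.989 or more with the spot values.

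Spots marked as irregular were left out (1939 in F1, 2097 in F2), the rest log2-transformed, quantile-normalized within a generation (all 24 together for the difference of the generations) and averaged per probe. limma 3.58.1 (R 4.3.3) was fitted over all probes with group means as terms, with Benjamini-Hochberg adjustment over all probes. A probe needed values on 2 arrays per group. Single values were compared by two-sided exact permutation of arrays. Fitting was tested on simulated data. The number of arrays limits the precision.

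A gene was represented by its brightest probe. Text names all 10 genes, of each pathway list the 3 genes of lowest p in F1 and 2 in F2 (well above background on at least 6 arrays), Per1 and Klf9, and the 5 genes most like each induced gene, of which 1 is not reported here. Pairs beyond those of the induced genes were named after their values were seen. The members and lists were chosen with earlier results of these data known. Alternatives covered scaling to the 75th percentile, normexp background (offset 50, on spot medians, as no mean signal column was at hand), the authors' table, a filter on dim probes, irregular spots kept, slide, replicate number, sex measure (mean log2 signal of Ddx3y, Eif2s3y, Kdm5d and Uty minus Xist), the code lh or rh of the F2 labels, whose meaning is not given in the sources used here, a fit of all 24 arrays and leaving out each array. After seeing the data, leaving out the arrays that stood apart and the choroid plexus markers as a covariate were added. For the relations, the mean of the oligodendrocyte or choroid plexus markers was also regressed out, with residuals permuted within groups. Promoter windows came from RefSeq (GRCm38.p6). Crh and Nr3c1 were not searched.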

Additional observations from a re-analysis of the deposited data

Results flagged for a closer look

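In each group of 6 arrays the highest and lowest value of each probe were checked against the gap to the nearest other array (Dixon's test). Of 48 sets, 9 had such an array, where chance gives about 1 in 20, or 2.4. The sets share arrays, and the same share over all probes is not given here. The count therefore cannot be read as particular to these genes. MD F1 replicate 6 gave 5 of the 9, with a log2 signal of 7.29 for the second Nr3c1 probe, 7.99 for Nr3c2, 9.73 for Crh, 8.34 for the second Crhr1 probe and 14.29 for Tsc22d3, the first pair lowest and the others highest in their group. The same array had the lowest oligodendrocyte marker mean in F1 (14.64) and the lowest correlation with its generation (0.985), and the part of either in these values was not tested. The other arrays were MD F1 replicate 5 with 12.92 for the brighter Nr3c1 probe, CD F1 replicate 4 with 12.77 for Sgk1, MD F2 replicate 2 with 10.52 for the brighter Crhr1 probe and MD F2 replicate 6 with 8.09 for the second Nr3c1 probe.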

How the results depend on the processing

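Under every alternative, 0 of the 12 probes were called in F1, in F2 and for the difference of the generations. The number with an unadjusted p under 0.05 was 2 to 5 in F1, 0 to 1 in F2 and 1 to 4 for the difference. In the main fits these numbers were 4, 0 and 3 of 12, beside 14.4%, 5.6% and 8.29% of all probes. Shares of all probes under the alternatives are not given here, so the ranges cannot be read against them. Log2 fold changes of both Nr3c1 probes, Nr3c2, Crhr1, Crhr2 and Tsc22d3 kept their sign in F1. Signs turned for the following values, of which none had passed its threshold. With the sex measure, Fkbp5 F1 was -0.075, Nr3c1 F2 0.0022 and the second Crhr1 probe F2 -0.016. With scaling to the 75th percentile, Nr3c1 F2 was 0.018, the Fkbp5 difference of generations 0.011 and the F2 relation of Sgk1 and Tsc22d3 -0.056 (-0.0049 in the authors' table). With normexp, Hsd11b1 F2 was -0.0073 and the F2 relation of Fkbp5 and Sgk1 0.13. With the choroid plexus markers, F2 values were 0.015 for Nr3c1, 0.019 for Nr3c2, -0.0076 and -0.10 for the Crhr1 probes, -0.035 for Crhbp, 0.094 for Sgk1, -0.061 for Hsd11b1 and -0.070 for Tsc22d3, and differences of generations 0.21 for Crh, 0.068 for Fkbp5 and -0.0075 for Sgk1. Without the arrays that stood apart, Crh F2 was 0.14 and the Hsd11b1 difference -0.026. The cause was not tested. The F1 relation of Fkbp5 and Sgk1 passed its threshold with oligodendrocyte markers regressed out (r 0.77), a setting in which p is approximate. That of Fkbp5 and Tsc22d3 missed it with normexp (r 0.73, adjusted exact permutation p = 0.0669).

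Leaving out 1 array at a time turned signs within these ranges. In F1 they were -0.18 to 0.0094 for Crh, -0.0014 to 0.14 for Fkbp5 and -0.00061 to 0.10 for Sgk1. In F2 they were -0.039 to 0.015 for Nr3c1, -0.11 to 0.0073 for Nr3c2, -0.13 to 0.086 for Crh, -0.081 to 0.20 for the second Crhr1 probe, -0.16 to 0.035 for Sgk1 and -0.063 to 0.082 for Hsd11b1. For the difference of generations they were -0.17 to 0.080 for Crh, -0.013 to 0.13 for Crhr1, -0.082 to 0.052 for Fkbp5 and -0.033 to 0.12 for Hsd11b1. The F2 relations ranged from -0.53 to 0.092 for Fkbp5 and Sgk1 and from -0.21 to 0.30 for Sgk1 and Tsc22d3.

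Same-numbered arrays of the 2 diets were not treated as pairs. They shared a slide for replicates 1 and 4 in F1 and for replicates 1, 2 and 4 in F2. Every same-numbered F2 pair also shared the code lh or rh. The correlations of their deviations ran from -0.053 to 0.21 in F1 and from -0.17 to 0.19 in F2. Such correlations cannot show whether the pools had anything further in common. With the replicate number as a block, 0 probes were called and Nr3c1 F1 was -0.25 (FDR 0.293, limma).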
